A study of Mus musculus with 10 samples.

Results

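The Janus kinases Jak1, Jak2, Jak3 and Tyk2 were followed in hippocampal microglia of 10 male Balbc mouse pups at postnatal day 14. These 4 genes were taken by name, without regard to their values, from the 545 endogenous genes of an nCounter mouse immune panel, and all 4 were measured in every pup. The panel counts fluorescent barcodes on target molecules, here cDNA made from 2 ng of RNA and amplified by 5 rounds of PCR. The submitters isolated the cells by Percoll gradient and flow sorting, and no source at hand states the gate. The labels carry pup numbers 1, 18, 40, 52 and 69 for the controls. Pups of the BDS group (brief daily separation), numbered 11, 17, 24, 38 and 59, spent 15 min of each day away from the mother, on a schedule running over days 1 to 21 after birth, so that it was still under way when cells were collected at day 14. What was done with control pups is not given in the sources used here. Strain and sex were shared by all pups, no litter gave more than 1 pup, and each pup filled 1 lane. The p-values thus refer to the spread between pups.

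JAK proteins are tyrosine kinases that sit on the inner tails of cytokine receptors, which have no kinase of their own. When a cytokine brings receptor chains together, the paired kinases phosphorylate each other and the receptor, and STAT transcription factors dock there, are phosphorylated and enter the nucleus. Jak1, Jak2 and Tyk2 are found in most cell types and serve interferon, interleukin-6, interleukin-10 and growth factor receptors in various pairs. Jak3 is largely a kinase of blood cells and works with the common gamma chain Il2rg. Microglia, the resident macrophages of the brain, respond through these kinases to interferons, interleukin-4, interleukin-10 and some of the colony-stimulating factors. By RefSeq (GRCm38.p6), mouse Jak1 lies on chromosome 4, Jak2 on chromosome 19, Jak3 on chromosome 8 and Tyk2 on chromosome 9.

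All 12 microglia and macrophage markers on the panel, Csf1r, Itgam and Cx3cr1 among them, passed the limit for testing. At an unadjusted p under 0.05, 4 were higher in BDS pups and 2 lower. The higher were Cd86 (log2 fold change 0.88), Ptprc (0.83), C1qa (0.76) and Ctss (0.48), and the lower Itgam (-0.56) and Cx3cr1 (-0.63). Of all tested genes, 19.4% were higher and 8.83% lower at that threshold. The summed level of all 12 ran from 141284 to 197062 normalized counts in control pups and from 149644 to 183384 in BDS pups. Endogenous counts per lane ran from 76237 in control 52 to 968930 in BDS 17. The geometric mean of 6 housekeeping genes (Alas1, Gapdh, Oaz1, Polr1b, Sdha and Tbp), used here as the lane's depth, varied 11.1-fold over the lanes and was higher in BDS lanes by 1.23 on the log2 scale. A normalized count is the raw count divided by that mean and rescaled to the average lane. Less RNA of a gene per cell and fewer cells carrying it cannot be told apart in such samples. For each gene, raw counts were fitted with edgeR's quasi-likelihood test, BDS against control, with p-values adjusted by Benjamini and Hochberg over the 283 genes above the negative-control limit in at least 4 lanes. All 4 kinases were above that limit in 10 of 10 lanes. With lane depth added to the fit as a covariate, the markers Cx3cr1 and Itgam were at -0.13 and -0.65. Cd86, Ptprc, C1qa and Ctss were then at 0.82, 0.47, 0.47 and 0.25.

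The comparison of BDS with control pups asked whether daily separation went with other transcript levels of these kinases. Jak3 stood higher in BDS pups, with 2.12 times the control mean, Jak1 had a lower mean and a very wide control spread, and Jak2 and Tyk2 differed little. After adjustment in edgeR none of the 4 reached 0.05, nor did any of the 283 genes (0% called, smallest adjusted p = 0.0642), while 80 genes had an unadjusted p under 0.05. At an adjusted p under 0.10, Jak3 was the 1 kinase of 4 called, beside 8.13% of tested genes. At an unadjusted p of 0.05, 2 of the 4 passed. These were Jak3 on the higher side, with 19.4% of tested genes, and Jak1 on the lower, with 8.83%, and 28.3% of tested genes passed in either direction. With 4 genes, no departure from that background can be read. For none of the 4 were the groups free of overlap, and the share of such genes on the panel was 4.59%.

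Jak3, the kinase paired with the common gamma chain, gave 405, 416, 554, 311 and 339.5 normalized counts in control pups 1, 18, 40, 52 and 69. In BDS pups 11, 17, 24, 38 and 59 it gave 518, 1505, 729.7, 755 and 789. Of the BDS pups, 4 of 5 lay above the highest control, and BDS 11 lay below control 40 alone. The means were 405 ± 94.1 in control pups and 859 ± 376 in BDS pups (SD, n = 5 each). The log2 fold change was 1.07 ± 0.27 (SE; edgeR unadjusted p = 0.00122, adjusted p = 0.0642), the second smallest p of the 283 genes. BDS 17 stood far above the other BDS pups, and without it the log2 fold change was 0.77 (edgeR adjusted p = 0.189). With lane depth as a covariate it was 0.66 ± 0.27 (edgeR adjusted p = 0.369), and without the shallow lanes control 52 and 69 and without BDS 17 it was 0.61. In DESeq2 with the same scaling the adjusted p was 0.00955. The authors' deposited table gives Jak3 a BDS over control ratio of 1.87 and an unadjusted p of 0.0412.

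Jak1, the partner of Jak2, Jak3 or Tyk2 at many receptors, gave 58.7, 104, 57.1, 561 and 168 normalized counts in control pups 1, 18, 40, 52 and 69. In BDS pups 11, 17, 24, 38 and 59 it gave 84.7, 72.6, 58.4, 83.4 and 89.4. The BDS pups lay close together, inside the range of the controls, and the 3 controls above all of them were pups 18, 52 and 69. The highest controls, 52 and 69, had the shallowest lanes. The means were 189.7 ± 212 in control pups and 77.7 ± 12.4 in BDS pups (SD, n = 5 each), with a log2 fold change of -1.19 ± 0.53 (SE; edgeR unadjusted p = 0.0394, adjusted p = 0.156). Without control 52 that value was -0.27, and without control 52 and 69 it was 0.09. Holding lane depth gave 0.30 ± 0.37. The authors' deposited table gives Jak1 a ratio of 0.34 and an unadjusted p of 0.25.

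The raw counts behind these Jak1 values followed depth less closely than those of the other kinases. They were 47, 115, 105, 110 and 62 in control pups 1, 18, 40, 52 and 69, and 70, 158, 101, 161 and 126 in BDS pups 11, 17, 24, 38 and 59. Control 52 thus had 110 raw counts of Jak1 in the shallowest lane, close to the 105 of control 40 in the deepest control lane. The slope of log2 raw count on log2 housekeeping mean was 0.24 for Jak1 over the 10 lanes, where 1 means in proportion to depth and 0 means no change with it. The median over the 283 genes was 1.02, and 19 of them (6.71%) had a slope under 0.5, with Jak1 the ninth lowest. That slope rested on control 52, and without it was 0.58, still below those of the other kinases. Jak3 lay near the steep end, at rank 275 of 283 counted from the lowest slope. Slopes were 1.08 for Jak2, 1.48 for Jak3 and 1.14 for Tyk2, and 0.95, 1.63 and 1.07 without control 52. From deviations within each group alone they were 0.16 for Jak1, 1.19 for Jak2, 1.32 for Jak3 and 1.14 for Tyk2. Mean raw counts of Jak1 were 87.8 ± 31.1 in control lanes and 123 ± 38.6 in BDS lanes (SD, n = 5 each), so that the raw means and the normalized means run in opposite directions. The lane limits set by the negative controls ran from 13.9 to 26.3 raw counts, below every Jak1 count.

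**Figure D1:**
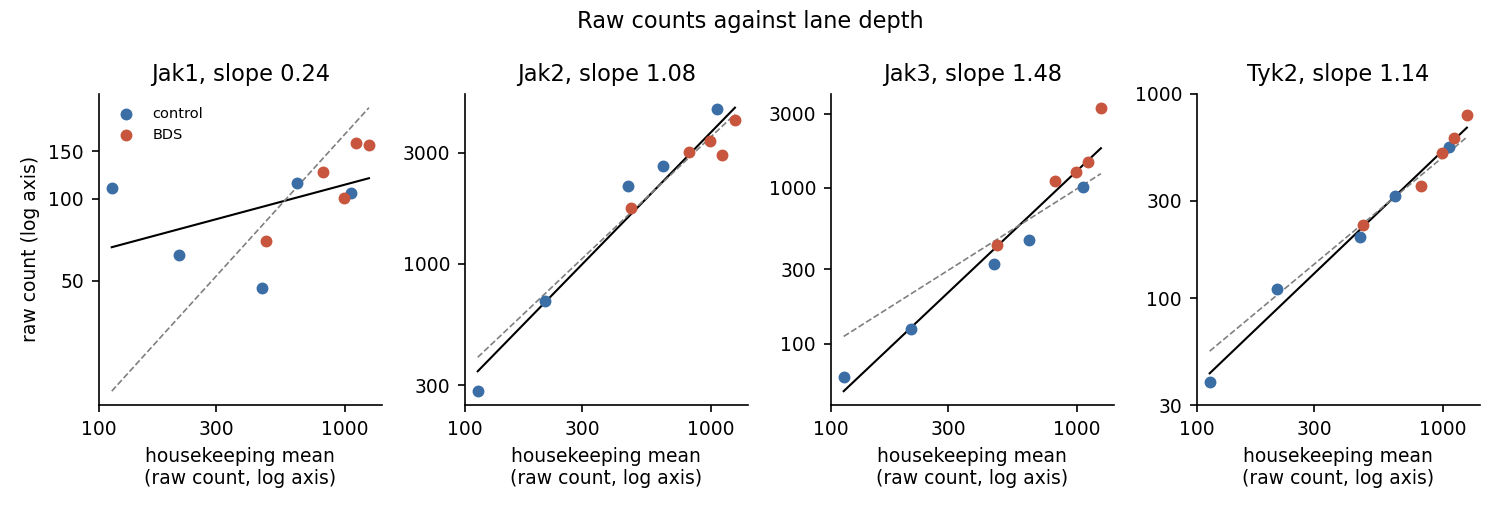
Raw count of each kinase (vertical, log axis) against the housekeeping mean of the lane in raw counts (horizontal, log axis), 1 point per pup, control in blue and BDS in red; the solid line is the fitted slope and the dashed line is proportion to depth. Jak2 and Tyk2 follow the dashed line with slopes of 1.08 and 1.14, Jak3 is steeper at 1.48 and Jak1 is flatter at 0.24, or 0.58 without control 52, the leftmost point.

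Jak2, the kinase of the beta common chain, growth factor and interferon gamma receptors, had the highest counts of the 4 probes, though counts of different probes are not set against each other here as amounts of transcript. It gave 2706, 2365, 2516, 1443 and 1879 normalized counts in control pups 1, 18, 40, 52 and 69. In BDS pups 11, 17, 24, 38 and 59 it gave 2091, 1909.7, 1954, 1520.04 and 2148. All 5 BDS pups lay below the control mean and none below the lowest control, pup 52. The means were 2182 ± 514 and 1925 ± 246 in control and BDS pups (SD, n = 5 each), and the log2 fold change was -0.18 ± 0.20 (SE; edgeR adjusted p = 0.548), a difference within the spread between pups. Without control 52 and 69 it was -0.39 (edgeR adjusted p = 0.121).

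Tyk2, which serves interferon alpha and beta, interleukin-10 and interleukin-12 receptors, gave 249, 285, 296, 199 and 301 normalized counts in control pups 1, 18, 40, 52 and 69. In BDS pups 11, 17, 24, 38 and 59 it gave 276, 363, 297, 315 and 250.4. The groups overlapped over most of their range, with 2 of 5 BDS pups above the highest control. The means were 266 ± 42.8 and 300.1 ± 42.5 (SD, n = 5 each) and the log2 fold change was 0.17 ± 0.19 (SE; edgeR adjusted p = 0.570), against a median of 0.09 over all 283 genes. The sign rested on the scaling: without Sdha among the housekeeping genes the value was -0.01. Coefficients of variation of Tyk2 and Jak2 were 16.1% and 23.6% in control pups and 14.1% and 12.8% in BDS pups. Those of Jak3 were 23.2% in control and 43.8% in BDS pups, and those of Jak1 112% and 16%.

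**Figure D2:**
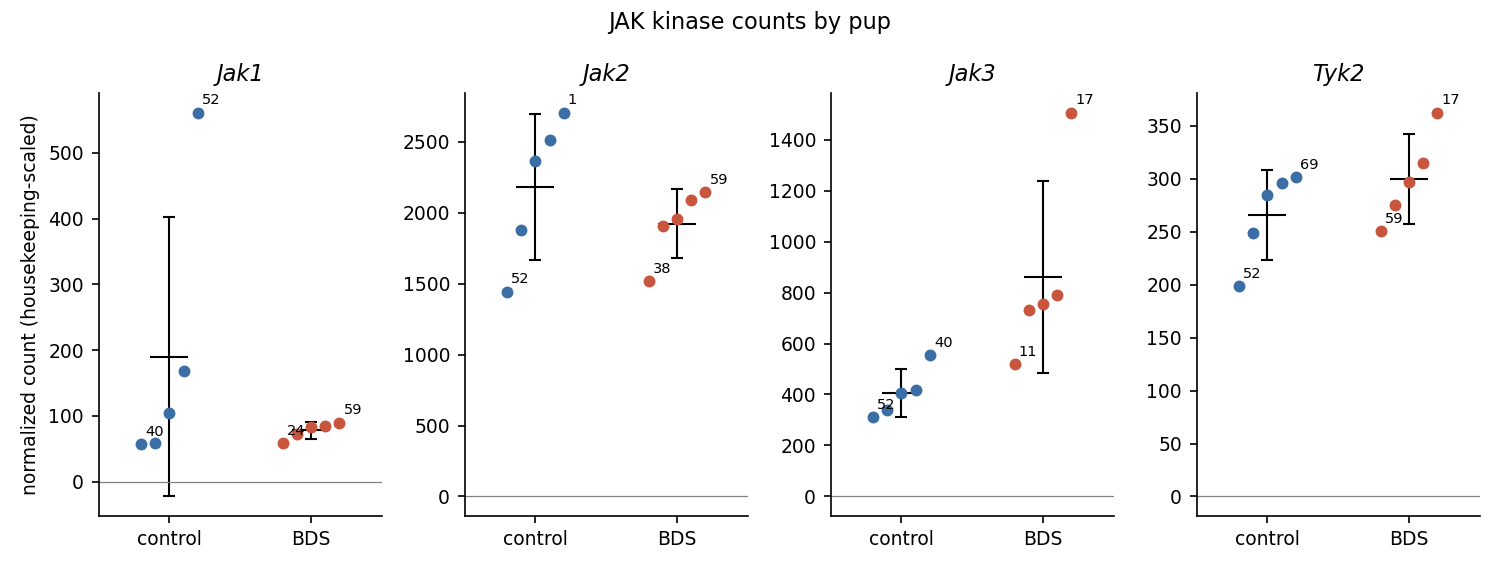
Normalized counts of Jak1, Jak2, Jak3 and Tyk2 (vertical, linear axis, a separate scale per gene) in the 5 control pups (blue) and 5 BDS pups (red), with the mean and SD in black and the lowest and highest pup of each group numbered. Jak3 reaches 1505 in BDS 17, Jak1 reaches 561 in control 52, and Jak2 and Tyk2 overlap between groups.

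Since each lane holds all 4 kinases, their ratios within a lane do not depend on how lanes are scaled. They can still vary with lane depth. The slope of the log2 ratio on log2 housekeeping mean was 0.40 for Jak3 over Jak2 and -0.35 for Tyk2 over Jak3. From deviations within each group these slopes were 0.13 and -0.18. The 6 possible pairs were each put to an exact permutation test (two-sided, over every assignment of lanes to groups), which can reach a p of 0.00794 at the smallest. These pairs were formed with the Jak3 values already known. The log2 ratio of Jak3 over Jak2 was -2.74, -2.50, -2.18, -2.20 and -2.46 in control pups 1, 18, 40, 52 and 69. In BDS pups 11, 17, 24, 38 and 59 it was -2.01, -0.34, -1.42, -1.01 and -1.44. Every BDS pup lay above every control, a difference of 1.17 between means of -2.42 ± 0.23 and -1.25 ± 0.62 (SD; exact permutation p = 0.00794, adjusted over the 6 pairs p = 0.0238, n = 5 each). Without BDS 17 the difference was 0.94 and the groups still did not overlap. With lane depth as a covariate, added after seeing the data and without a test, it was 1.004.

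Tyk2 over Jak3 was lower in every BDS pup than in any control, by 0.84 on average (control mean -0.59 ± 0.27, BDS mean -1.43 ± 0.44; exact permutation p = 0.00794, adjusted p = 0.0238, n = 5 each). The separation of the groups was narrow at its edge, -0.906 in BDS 11 against -0.902 in control 40. With lane depth as a covariate, added after seeing the data and without a test, the difference was -0.62. Tyk2 over Jak2 differed by 0.33 (exact permutation p = 0.159, adjusted p = 0.238, n = 5 each), within the spread of both groups. Ratios to Jak1 spread widely among controls: Jak3 over Jak1 was 1.64 ± 1.63 in control pups and 3.38 ± 0.66 in BDS pups (exact permutation p = 0.0556, adjusted p = 0.111, n = 5 each). Jak2 over Jak1 and Tyk2 over Jak1 differed by 0.57 and 0.90 (exact permutation p = 0.587 and 0.254, adjusted p = 0.587 and 0.305), and both turned negative without control 52 and 69. Jak3 was thus high in BDS pups relative to Jak2 and to Tyk2 in the same lanes, a difference past the threshold for those 2 pairs. Both pairs contain Jak3, so they are not independent results. How often ratios between other tested genes separate the groups was not tested. With only 3 controls left, without pups 52 and 69, both ratios kept their direction, at 1.23 for Jak3 over Jak2 and -0.72 for Tyk2 over Jak3, with an exact permutation p of 0.0536 and an adjusted p of 0.161 each. With fewer lanes there are fewer assignments, and the smallest p the test can reach is larger.

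**Figure D3:**
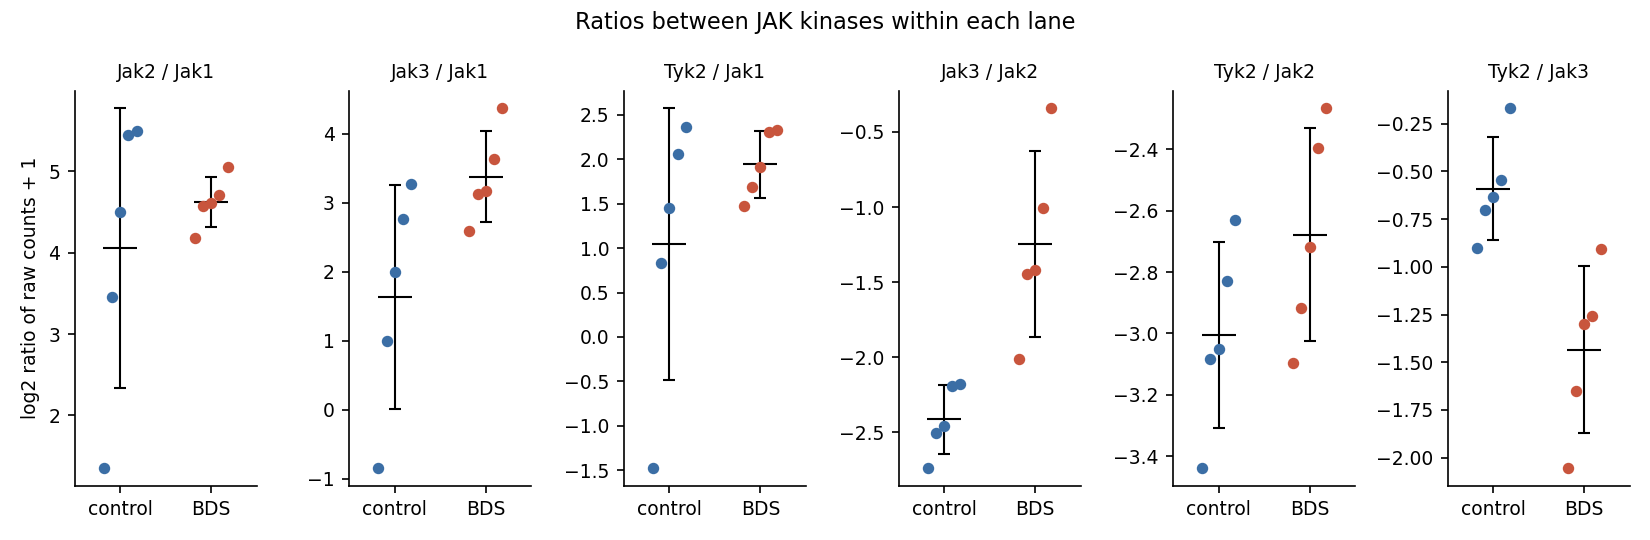
Log2 ratio of raw counts, each with 1 added, for the 6 pairs of kinases within each lane (vertical, a separate scale per pair) in the 5 control pups (blue) and 5 BDS pups (red), with mean and SD. The groups do not overlap for Jak3 over Jak2 and only just do not for Tyk2 over Jak3; the other 4 pairs overlap.

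Levels of the kinases over the 10 lanes did not run together as a family. On the log2 scale of normalized counts, Pearson's r was 0.67 between Jak3 and Tyk2, 0.11 between Jak2 and Tyk2 and -0.05 between Jak2 and Jak3, and Jak1 ran against the others at -0.55 to -0.65. These are descriptions over 10 lanes that share the housekeeping divisor. Among the tested genes most like Jak3 in this measure were the receptor gene Cd160 (r = 0.95) and the toll-like receptor adaptor Tirap (r = 0.95). Taken as deviations from the group means, both were 0.92. Jak1 was closest to the NF-kB subunit Relb (r = 0.96), the lymphotoxin beta receptor Ltbr (r = 0.95) and the transcription factor Ikzf2 (r = 0.95), genes whose own slopes on depth were 0.24, 0.37 and 0.32. Jak2 was closest to the receptor Notch1 (r = 0.95), the amyloid precursor App (r = 0.88) and the interferon receptor chain Ifnar2 (r = 0.86). Genes close to Tyk2 included the transporter Abcb10 (r = 0.84) and the sialomucin Cd164 (r = 0.83).

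Genes around the kinases were read from 8 lists of ligands, receptors, STATs, inhibitors and STAT targets. Of the 78 listed genes on the panel, 44 were tested. A positive log2 fold change was found for 158 of all 283 tested genes and for 25 of these 44. After adjustment over all genes edgeR called 0 of them, and at an unadjusted p of 0.05 10 passed (7 higher, 3 lower in BDS), a share of 22.7% beside the 28.3% of all tested genes. Their median log2 fold change was 0.17, beside 0.09 for all 283 genes.

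Among cytokines that signal through JAKs, 5 of 26 were tested and all 5 had negative log2 fold changes, with a median of -0.39. Il13, at -1.16 ± 0.52 (SE; edgeR adjusted p = 0.156), was the 1 with an unadjusted p under 0.05. It exceeded the limit in 4 lanes and stood at -0.02 with lane depth as a covariate. In that fit Ebi3, Tslp and Il15 turned positive, at 0.15, 0.13 and 0.06, from -0.61, -0.39 and -0.14, so that the shared direction did not hold. The other 21 ligands, including Il2, Il4, Il6, Il10 and Ifng, were not tested, and 13 ligands exceeded the limit in no lane.

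Of the gamma chain receptor genes, whose products work with Jak1 and Jak3, 4 of 7 were tested. Il4ra, the interleukin-4 receptor chain, stood at 206 ± 84.5 normalized counts in control and 355 ± 184 in BDS pups (SD, n = 5 each). This gave 0.83 ± 0.36 (SE) as log2 fold change, with an edgeR adjusted p of 0.156. It was 0.50 without BDS 17, where it reached 641. Il7r was at -0.01 ± 0.32, Il15ra at 0.24 ± 0.23 and Il21r at 0.32 ± 0.29. With lane depth as a covariate Il7r was at -0.30 and Il21r turned to -0.24. Il2rg, the common gamma chain that Jak3 binds, gave 6 to 46 raw counts and exceeded the limit in 3 of 10 lanes, and Il2ra and Il2rb exceeded it in none. The 3 lanes for Il2rg were BDS 17, at 46 raw counts, BDS 24, at 28, and BDS 38, at 23, while BDS 17 had 3276 raw counts of Jak3. Control 40 had 24 raw counts of Il2rg, more than BDS 38, but a higher lane limit of 25.5. As normalized counts Il2rg ran from 11.9 to 21.1 in BDS pups and from 13.0 to 40.8 in control pups. The 40.8 was 8 raw counts in control 52, under that lane's limit of 24.4. No control lane exceeded its limit, so the groups are not set against each other for Il2rg.

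Receptors of interferons, interleukin-10 and interleukin-12, served by Jak1, Jak2 and Tyk2, had 7 of 10 genes tested, 4 higher and 3 lower. Il10rb, the chain of the interleukin-10 receptor that binds Tyk2, was at 0.81 ± 0.26 (SE; edgeR adjusted p = 0.0964), or 0.37 with lane depth as a covariate. Its Jak1-binding partner Il10ra was at -0.29 ± 0.15 (edgeR adjusted p = 0.217), with BDS and control pups not overlapping. Such separation was found for 1 of the 44 tested genes of the 8 lists and for 4.59% of all 283 tested genes. For the interferon receptors the Tyk2-binding chain Ifnar1 was at 0.37 ± 0.22 and the Jak1-binding chain Ifnar2 at -0.28 ± 0.19, and the Jak2-binding chain Ifngr2 was at 0.34 ± 0.17 and the Jak1-binding chain Ifngr1 at -0.26 ± 0.19. In the reported fit none of these 5 interferon and Il10ra values passed an unadjusted p of 0.05. With lane depth as a covariate Ifnar1 was at 0.03, Ifnar2 at -0.45, Ifngr2 at 0.42, Ifngr1 at -0.28 and Il10ra at -0.20. In that fit Ifnar2 and Ifngr2 had an edgeR unadjusted p of 0.0353 and 0.0475. After adjustment it called 0 of all tested genes. The gamma chain receptor gene Il4ra, also served by Jak1, was higher, at 0.83. The gp130 receptor genes had 3 of 4 tested, with the smallest p for Il27ra (-0.71 ± 0.39, edgeR adjusted p = 0.229), which exceeded the limit in 4 lanes. Of the receptors listed for Jak2, Csf3r was at -0.77 ± 0.24 (edgeR adjusted p = 0.0890) and Crlf2 at -0.79 ± 0.36 (edgeR adjusted p = 0.159), Il13ra1 at 0.67 ± 0.33 and Csf2rb at -0.39 ± 0.23. With lane depth as a covariate Csf3r was at -0.37 and Crlf2 at -0.09.

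Of the STAT genes, which carry the signal of the kinases to the nucleus, Stat5a, a target of Jak2 and Jak3 receptors, was at 0.46 ± 0.23 and Stat5b at 0.30 ± 0.19. Stat3, the main STAT of gp130 receptors, was at -0.24 ± 0.29, and Stat6, which answers interleukin-4, at -0.06 ± 0.18. Both turned positive with lane depth as a covariate, at 0.21 and 0.18, and without control 52, at 0.02 each. None of these 4 passed an unadjusted p of 0.05 in edgeR.

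Inhibitors had 6 of 7 genes tested. Socs3, which blocks gp130-bound kinases, was at 0.94 ± 0.37 (SE; edgeR adjusted p = 0.132) and Ptprc, a phosphatase that can act on JAKs and marks all leukocytes, at 0.83 ± 0.26 (edgeR adjusted p = 0.0904). The phosphatase genes Ptpn6 and Ptpn2 were at -0.23 ± 0.17 and -0.05 ± 0.25. Among 9 tested STAT targets, 7 had positive values, beside 158 of all 283 tested genes. At an unadjusted p under 0.05 in edgeR, 2 of the 9 passed, beside 28.3% of all tested genes. These were Cxcl10 at 1.09 ± 0.46 (edgeR adjusted p = 0.152) and Cdkn1a, also a p53 target, at 0.61 ± 0.24 (edgeR adjusted p = 0.140). Cxcl10 was at 0.71 without BDS 17. Irf1 was at 0.41 ± 0.19 and Mx1 at -0.41 ± 0.32.

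**Figure D4:**
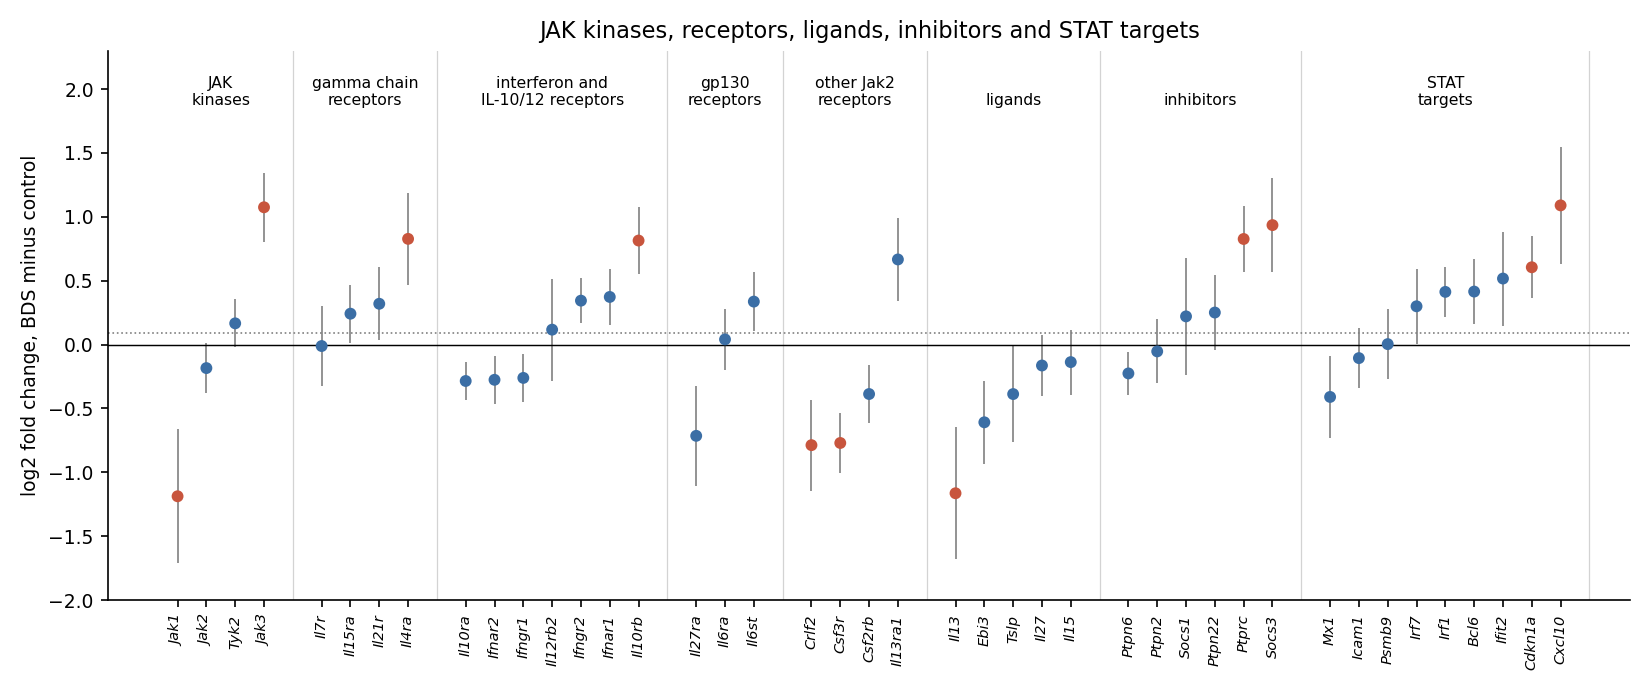
Log2 fold change, BDS minus control (vertical), with its standard error, for the 4 kinases and the tested receptors, ligands, inhibitors and STAT targets, grouped by role; red marks an unadjusted edgeR p under 0.05 and the dotted line the median of all 283 genes (0.09). Jak3 lies highest of the kinases at 1.07 and Cxcl10 highest of the STAT targets at 1.09, and none of the genes passed after adjustment.

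Markers of other cells were present at various levels. Some had an unadjusted p under 0.05 in edgeR, as had 28.3% of all tested genes, and none passed after adjustment. Of 21 T, B and NK cell markers on the panel, 11 exceeded the limit in no lane, among them Cd3d (4 to 11 raw counts) and Cd3e (3 to 9), none was at 0 in all lanes, and 4 were tested. Cd27 was at 0.69 ± 0.27 (SE; edgeR unadjusted p = 0.0213, adjusted p = 0.132) and Prf1, Klrk1 and Cd79b at 0.33, -0.06 and -0.14. The summed level of all 21 ran from 523 to 836 normalized counts in control and from 498 to 693 in BDS pups. These sums include probes below the limit, whose counts are scaled up most in shallow lanes, so the levels of control 52 and BDS 17 are not set against each other. Of 9 neutrophil and monocyte markers, 4 exceeded the limit in no lane and 2 were tested, Csf3r, which is given with the Jak2 receptors, and Ccr2, at 0.59 ± 0.23 (SE; edgeR unadjusted p = 0.0232, adjusted p = 0.137). Their sum ran from 1630.2 to 3631 in control and 1188 to 1875 in BDS pups. Of 6 endothelial markers, 2 exceeded the limit in no lane and 3 were tested. Cdh5 was at 0.97 ± 0.37 (SE; edgeR unadjusted p = 0.0181, adjusted p = 0.128), Pecam1 at -0.56 ± 0.24 (unadjusted p = 0.0347, adjusted p = 0.156) and Cd34 at -0.42 ± 0.24. Their sum ran from 796 to 1705 and from 1002 to 1104. The neural list held App and Mbp, which summed to 1357 to 4791 in control and 2367 to 3103 in BDS pups. App was above the limit in 10 of 10 lanes and made up most of that sum. Its means were 2947 in control and 2565 in BDS pups, beside 114 and 102 for Mbp. The sum is therefore not read as a level of neural cells. With lane depth as a covariate Cd27 was at 0.40, Ccr2 at 0.59, Cdh5 at 0.40 and Pecam1 at -0.85. The part of these other cells in the kinase values was not tested.

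Over 31 other settings of scaling, filter, tool and lanes, Jak3 was higher in BDS pups in 31, at log2 fold changes from 0.61 to 2.26, and had an adjusted p under 0.05 in 8. Jak1 was lower in 27 and Jak2 in 30, and Tyk2 was higher in 29, none of these 3 passing in any. The 2.26 for Jak3 came with scaling to positive controls alone, where the median of all tested genes was 1.35. Jak3 stood 0.90 above that median, beside 0.99 above the median in the reported fit.

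**Figure D5:**
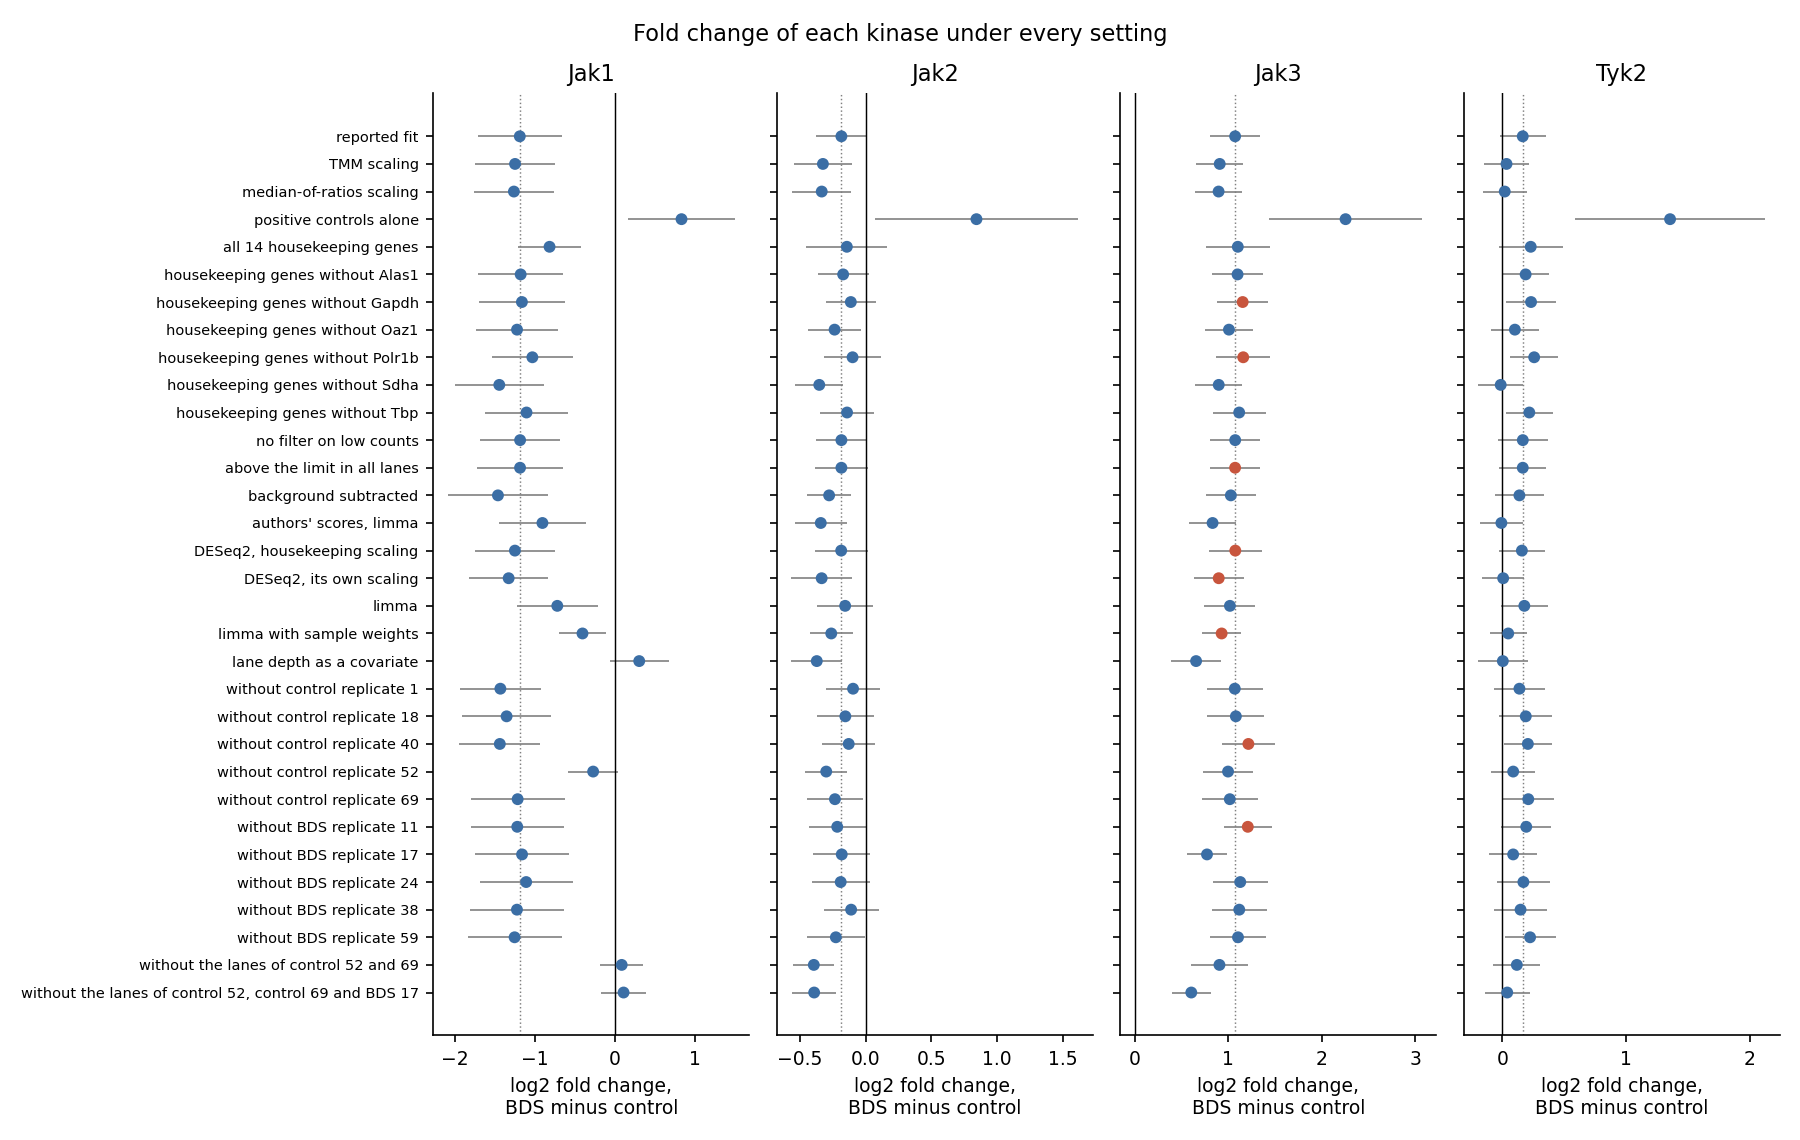
Log2 fold change, BDS minus control (horizontal, a separate scale per gene), with its standard error, for the reported fit and 31 other settings (rows); red marks an adjusted p under 0.05 and the dotted line the reported value. Jak3 stays above 0 throughout, Jak1 moves from -1.19 to 0.09 without control 52 and 69 and to 0.30 with lane depth as a covariate, and scaling to positive controls alone moves all 4 upward.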

How the data were processed

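Per the file headers, the deposited raw table has unscaled barcode counts for 545 endogenous, 14 housekeeping, 8 negative control and 6 positive control probes. The counting software was not stated in any source at hand. The other deposited table has values that the authors divided by positive-control and housekeeping factors, per the series' design text, and rounded, and they are handled here as a score. Its fold change is a ratio of group means, its p-value is unadjusted, and its percent is the share of samples above background, per the file headers.

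A gene was tested if at least 4 of 10 lanes had a raw count more than 2 SD over the mean of that lane's negative probes. The test was edgeR's quasi-likelihood F test (edgeR 4.0.16 in R 4.3.3) on the raw counts of all 10 lanes, two-sided, with offsets from 6 housekeeping genes and no covariate. Each standard error was the size of the log2 fold change divided by the root of its F value. Ratios used log2 of raw count plus 1. Limma 3.58.1 and DESeq2 1.42.0 served as alternatives. Simulated counts with known changes were used to check the edgeR code. No pair of lanes agreed within sampling noise (chi-square per degree of freedom 22.8 or more). Since PCR preceded counting, with no molecular identifiers, counts are not separate molecules.

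The named genes were the 4 kinases, the 3 genes most correlated with each, and from each pathway list every tested gene with an unadjusted p under 0.05, otherwise the one with the smallest p, and the 6 housekeeping genes. Il7r, Il15ra, Il21r, Il2rg, Il2ra, Il2rb, Il10ra, the interferon receptors, Il13ra1, Csf2rb, Stat3, Stat5a, Stat5b, Stat6, Ptpn6, Ptpn2, Ebi3, Tslp, Il15, Irf1, Mx1 and the cell markers were named after their values were seen. Some genes under this rule are not reported here. Members and lists were chosen with earlier results of these data known.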

Additional observations from a re-analysis of the deposited data

Results flagged for a closer look

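Of 20 sets of 5 values checked (4 kinases and 6 ratios in each group), 2 held a pup far from the others, where chance marks about 1 in 20. Jak1 in control 52 stood at 561 normalized counts, with the next control at 168 and the lowest at 57.1. Control 52 was the shallowest lane, with 76237 endogenous counts, and its 110 raw counts of Jak1 lay within the 47 to 161 of all lanes. Jak3 in BDS 17 stood at 1505 normalized counts, with the next BDS pup at 789 and the lowest at 518. BDS 17 was the deepest lane, with 968930 endogenous counts, and the same pup was highest for Il4ra (641). Fitted beside lane depth, the log2 difference of BDS from control was 0.30 for Jak1 and 0.66 for Jak3.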

How the results depend on the processing

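Lane depth differed between the groups, and Jak1 rests on under 200 raw counts per lane. No paired analysis was possible because the groups share no replicate numbers. Jak3 passed an adjusted p of 0.05 at 1.16 without Gapdh (edgeR adjusted p = 0.0485), 1.16 without Polr1b (0.0407), 1.07 for genes above the limit in all lanes (0.0490), 1.08 and 0.90 in DESeq2 with housekeeping and its own scaling (0.00955 and 0.0204) and 0.93 in limma with sample weights (0.0147). Leaving out each pup gave 0.77 to 1.22 for Jak3, the latter without control 40 (edgeR adjusted p = 0.0254), with 1.21 without BDS 11 (0.0297). The same gave -1.44 to -0.27 for Jak1, -0.30 to -0.10 for Jak2 and 0.09 to 0.23 for Tyk2. Jak1 reversed to 0.83 with positive controls alone, 0.30 with lane depth, 0.085 without control 52 and 69 and 0.11 without these and BDS 17. Jak2 reversed to 0.84 with positive controls alone, a scaling under which the median of all genes was 1.35, so that Jak1 and Jak2 stood at -0.52 and -0.51 from that median. Tyk2 reversed to -0.012 without Sdha and to -0.0066 on the authors' scores in limma. Tested genes with an adjusted p under 0.05 numbered 0 in the reported fit, 14 with positive controls alone, 12 without Gapdh, 15 without Polr1b, 10 above the limit in all lanes, 25 and 31 in DESeq2, 85 in weighted limma and 0 to 48 on leaving out a pup (48 without control 40, 19 without BDS 11). At an unadjusted p the 80 became 128 with positive controls alone (128 higher, 0 lower; 55 to 25 in the reported fit, 36 to 39 with TMM), 139 without a filter, 122 in weighted limma, 36 with lane depth and 45 to 108 on leaving out a pup, the ends being BDS 17 and control 40.

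Ratios over leaving out each pup ran from 0.94 to 1.36 for Jak3 over Jak2, -0.97 to -0.69 for Tyk2 over Jak3 (both with adjusted p from 0.0238 to 0.0476), 0.22 to 0.43 for Tyk2 over Jak2, 1.12 to 2.15 for Jak3 over Jak1 (adjusted p = 0.0317 without control 40), 0.27 to 1.23 for Tyk2 over Jak1 and -0.10 to 0.93 for Jak2 over Jak1. Without control 52 and 69 they were 1.23, -0.72, -0.52 (Jak2 over Jak1) and -0.013 (Tyk2 over Jak1), and without these and BDS 17 they were 1.003, -0.56, -0.55 and -0.10, where the first and second no longer passed with fewer samples. Fewer lanes allow fewer assignments, so the smallest p that the permutation test can reach is larger there, and not passing is not read as a loss of the difference. With lane depth, added after seeing the data, Jak2 over Jak1 was -0.69, Tyk2 over Jak1 -0.31 and Jak3 over Jak1 0.31. The cause of these changes was not tested.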

Other observations

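Across the 283 tested genes, the log2 fold change between BDS and control ran with how steeply a gene's raw counts followed lane depth among pups of the same group (Pearson r = 0.62, Spearman rho = 0.51, a description over genes, which are not independent and share all 10 lanes). The 133 genes with a within-group slope above 1 had a median log2 fold change of 0.35, and the 150 others had -0.09. Jak3, with a slope of 1.32, and Jak1, with 0.16, lay on opposite sides of this, while Jak2, with 1.19, had a log2 fold change of -0.18 and so went the other way. BDS lanes were the deeper ones on average. Control 52, the shallowest lane, enters both the slope and the fold change of each gene. The correlation was not computed without it, so how far it rests on that lane was not tested.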
